A study of Bos taurus with 9 samples.

Results

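The glycine cleavage system and the folate enzymes next to it were followed in cloned cattle embryos. The set holds 9 genes (GCSH, GLDC, AMT, DLD, SHMT1, SHMT2, MTHFD1, MTHFD2 and MTHFD1L) of the 16129 that are listed in all 9 libraries, and each gene has a single row per library. The genes were chosen by the measured level of GCSH, which is very abundant and was lower in KDM6A morulae than in control morulae. Their identifiers are ENSBTAG00000006795.1 (GCSH), ENSBTAG00000025903.4 (GLDC), ENSBTAG00000002321.4 (AMT), ENSBTAG00000001908.5 (DLD), ENSBTAG00000017094.5 (SHMT1), ENSBTAG00000031500.1 (SHMT2), ENSBTAG00000009641.4 (MTHFD1), ENSBTAG00000004881.5 (MTHFD2) and ENSBTAG00000009846.5 (MTHFD1L). Because of that choice, every value of these genes in KDM6A against control morulae is a description without a test, and so is every value of GCSH. The other 8 genes were tested between control morulae and 8-cell embryos, and all of them but SHMT1 between KDM6A morulae and 8-cell embryos.

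All libraries came from Bos taurus (Holstein) embryos cloned by nuclear transfer from somatic cells (SCNT), in which a donor cell is fused with an egg whose own chromosomes have been removed. Per the labels' protocols, the donor cells of all groups were fibroblasts of a female Holstein fetus at an early passage. KDM6A morulae (3 libraries) came from reconstructed embryos injected 1 h after activation with mRNA coding for wild-type bovine KDM6A, a demethylase of histone H3. Control morulae (3 libraries) were not injected, so the act of injection is not controlled for. Morulae were taken on day 5 in pools of 5 embryos. The 8-cell embryos (3 libraries), the control type at the earlier stage, come from an earlier series according to the series' design text, so a difference in stage and a difference in source series cannot be told apart. The pool size of these 8-cell libraries is not stated separately. Nothing in the labels ties the pools within a group to separate egg batches. The p-values therefore cover only the spread among these libraries, which may be technical.

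The glycine cleavage system is a mitochondrial complex that breaks glycine down and hands a single carbon unit to folate. GLDC (P protein) removes the carboxyl group, GCSH (H protein) carries the rest on its lipoic acid arm, AMT (T protein) passes the carbon to tetrahydrofolate, and DLD (L protein) re-oxidises the arm. The serine hydroxymethyltransferases SHMT2 (mitochondrial) and SHMT1 (cytosolic) pass a carbon from serine to folate, each in its own compartment. MTHFD2 and MTHFD1L turn the carbon on mitochondrial folate into formate, and MTHFD1 uses formate in the cytosol for purines, thymidylate and methionine. In mice, loss of GLDC or of AMT causes neural tube defects, and early mouse embryos take up glycine to control cell volume.

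Levels are in FPKM, which counts fragments relative to transcript length and library size, so that they can be set side by side between genes. Sequencing depth is unknown. KDM6A itself was at 35.65, 87.58 and 79.44 FPKM in the KDM6A morulae (replicates 1, 2 and 3) and at 10.72, 13.86 and 10.74 FPKM in control morulae. All 11 early embryo markers looked up, POU5F1, NANOG and CDH1 among them, averaged at least 1 FPKM in both morula groups, and 9 did in 8-cell embryos. Summed FPKM of 11 oocyte and maternal transcripts ran from 119 to 196 in KDM6A morulae, from 23.4 to 471 in control morulae and from 3810 to 9210 in 8-cell embryos. BTG4 was the highest of these transcripts in every library, at 3360.44, 8657.55 and 5715.83 FPKM in the 8-cell libraries. For 11 donor fibroblast markers the sums were 42.9 to 53.6, 26.0 to 51.6 and 30.9 to 83.1 FPKM in the same groups. PDGFRA and DCN were the highest of these markers in every morula library. COL1A1 read at most 1.17, COL1A2 at most 0.36 and COL3A1 at most 0.01 FPKM in any morula library. The sum of 83.1 FPKM was 8-cell replicate 2, where LUM read 29.11 FPKM against 2.21 and 5.59 in replicates 1 and 3. Every fibroblast marker but PDGFRA was highest in that replicate among the 8-cell libraries. FBN1 read 10.6 FPKM there against 2.88 and 3.05, and COL1A1 5.09 FPKM against 1.06 and 0.91. For 8 cumulus and granulosa markers the sums were 2.76 to 6.05 FPKM in KDM6A morulae, 4.38 to 5.96 in control morulae and 15.3 to 26.0 in 8-cell embryos. The 8-cell sums were mostly HAS2 (5.57, 19.82 and 9.34 FPKM) and TNFAIP6 (9.56, 5.79 and 6.84 FPKM). The other markers of this list read under 1 FPKM in every library of the 3 groups. INHA was listed at 0 in all KDM6A morulae, and INHA, PTX3 and CYP11A1 were listed at 0 in all 8-cell libraries. The part of maternal transcripts, or of either marker list, in the results that follow was not tested.

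**Figure D1:**
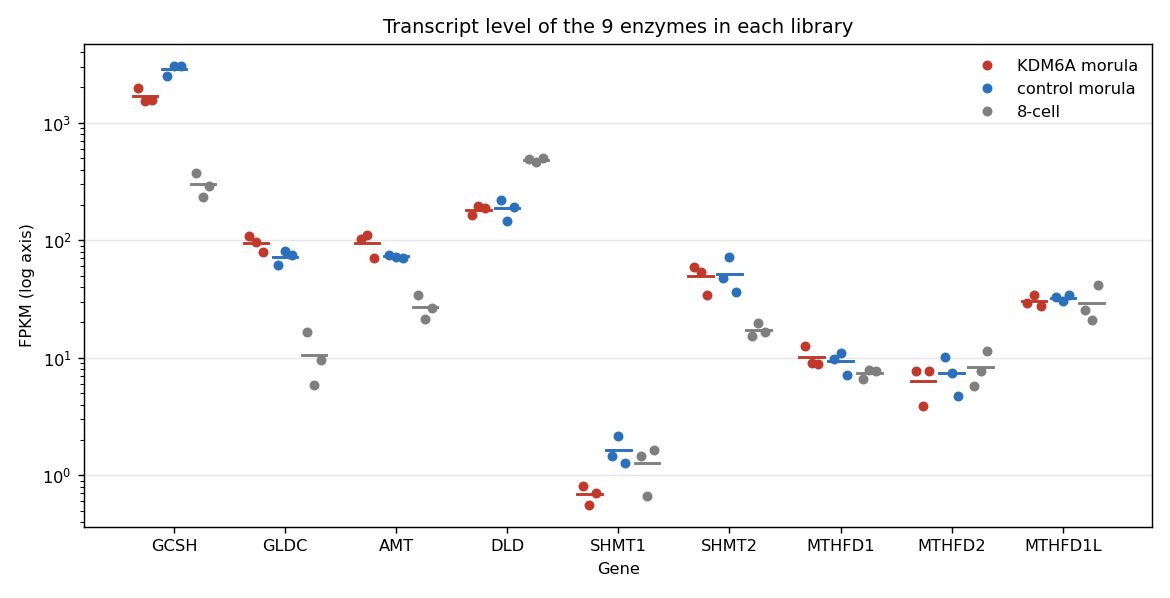
FPKM on a log axis of the 9 enzymes in each library (points) with the mean of each group (bars), for KDM6A morulae, control morulae and 8-cell embryos. GCSH stands above the other 8 genes in both morula groups, while DLD is the highest of the 9 in 8-cell embryos.

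GCSH transcript dominated the set in morulae. It stood at 1965.81, 1519.94 and 1569.86 FPKM in the KDM6A morulae, at 2481.73, 3019.75 and 3046.62 FPKM in control morulae and at 376.35, 232.29 and 287.86 FPKM in 8-cell embryos. The 3 groups did not overlap. GCSH ranked between 74 and 113 among all listed genes in KDM6A morulae, between 36 and 64 in control morulae and between 402 and 557 in 8-cell embryos. It made up 78.1% ± 2.67 (SD, n = 3) of the summed FPKM of the 9 genes in KDM6A morulae, 86.65% ± 1.97 in control morulae and 33.4% ± 4.70 in 8-cell embryos.

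Mean GCSH was 1685 ± 244 FPKM in KDM6A morulae and 2849 ± 319 FPKM in control morulae (SD, n = 3 each), a ratio of 0.591. The log2(FPKM + 1) difference was -0.76 (SE 0.137). This difference chose the set and carries no test here. KDM6A replicate 1, the injected pool with the least KDM6A transcript, had the most GCSH of its group. It also had the highest maternal sum of its group (196 FPKM), of which BTG4 alone read 159.89 FPKM. Within that group ZP3, ZP4, GDF9, BMP15, BTG4 and MOS were highest in replicate 1. ZP2, NLRP5 and NPM2 were highest in replicate 2, and WEE2 and CNOT6L in replicate 3. Control replicate 1 had the highest maternal sum of the control pools (471 FPKM, BTG4 374.34 FPKM), with each of these transcripts at its highest there. It had the least GCSH of its group. The part of KDM6A transcript or of maternal transcript in the GCSH values was not tested. Among 187 genes averaging at least 1000 FPKM in control morulae, GCSH and the mitochondrially encoded ND2 had differences at or below that of GCSH. Over all 9777 genes in the fit, 198 did. GCSH was chosen for its level and for this difference, so nothing is read from its place among these genes. GCSH has processed pseudogenes in human, and the handling of reads shared with near-identical copies is not stated, so its level is uncertain to that extent.

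Transcripts of the partner proteins GLDC, AMT and DLD overlapped between KDM6A and control morulae. GLDC, the decarboxylase, was at 108.57, 96.47 and 80.16 FPKM in KDM6A morulae and at 62.07, 80.46 and 75.37 FPKM in control morulae. AMT, the aminomethyltransferase, was at 103.35, 111.67 and 70.31 FPKM in KDM6A morulae and at 75.47, 72.65 and 70.39 FPKM in control morulae. For both genes the means were higher in KDM6A morulae, with log2 differences of 0.38 (SE 0.177) and 0.35 (SE 0.192), and the groups overlapped. DLD, which also serves the pyruvate, oxoglutarate and branched-chain dehydrogenase complexes, averaged 182 ± 15.2 FPKM in KDM6A morulae and 186.5 ± 37.1 FPKM in control morulae.

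Among the folate enzymes, SHMT1 was lower in KDM6A morulae, at a level near the filter of 1 FPKM. It read 0.81, 0.56 and 0.70 FPKM in KDM6A morulae and 1.45, 2.17 and 1.28 FPKM in control morulae, and it entered the fit through the control libraries alone. The log2(FPKM + 1) difference was -0.63 (SE 0.218), and -1.11 with a pseudocount of 0.1. SHMT2, its mitochondrial counterpart, averaged 49.3 ± 13.3 FPKM in KDM6A morulae and 52.0 ± 18.2 FPKM in control morulae. MTHFD1 (10.1 ± 2.04 and 9.32 ± 1.96 FPKM), MTHFD2 (6.39 ± 2.19 and 7.38 ± 2.69 FPKM) and MTHFD1L (30.3 ± 3.44 and 32.35 ± 1.83 FPKM), each in KDM6A and then control morulae, had log2 differences between -0.18 and 0.11, and their groups overlapped.

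In all, 2 of the 9 genes, GCSH and SHMT1, did not overlap between KDM6A and control morulae, both lower. Of all 9777 genes in this fit, 15.7% did not overlap, made up of 8.61% lower and 7.10% higher in KDM6A morulae. Genes called at a limma adjusted p under 0.05 made up 0.164% (0.123% higher and 0.0409% lower), or 16 genes. That count was 725 without KDM6A replicate 1, 3 and 1 without KDM6A replicates 2 and 3, and 8 and 3 without control replicates 2 and 3. Nothing is read from the count of 2, since this comparison chose the set.

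Within a library, a ratio of FPKM between 2 genes does not depend on how the library was scaled. GCSH exceeded GLDC by 18.1, 15.8 and 19.6 times in the KDM6A morulae and by 40.0, 37.5 and 40.4 times in control morulae, and exceeded AMT by 19.0, 13.6 and 22.3 times in KDM6A morulae and 32.9, 41.6 and 43.3 times in control morulae. The groups did not overlap for either ratio. Both ratios hold GCSH, whose lower level in KDM6A morulae chose the set, so nothing further is read from this. SHMT2 exceeded SHMT1 by 73.6, 96.4 and 49.0 times in KDM6A morulae and by 32.6, 33.2 and 28.6 times in control morulae, a ratio that moves from a log2 difference of 1.16 to one of 0.57 when 1 FPKM is added to both genes. GLDC and AMT stood close to equal in both groups, with geometric mean ratios of 1.01 in KDM6A morulae and 0.992 in control morulae.

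**Figure D2:**
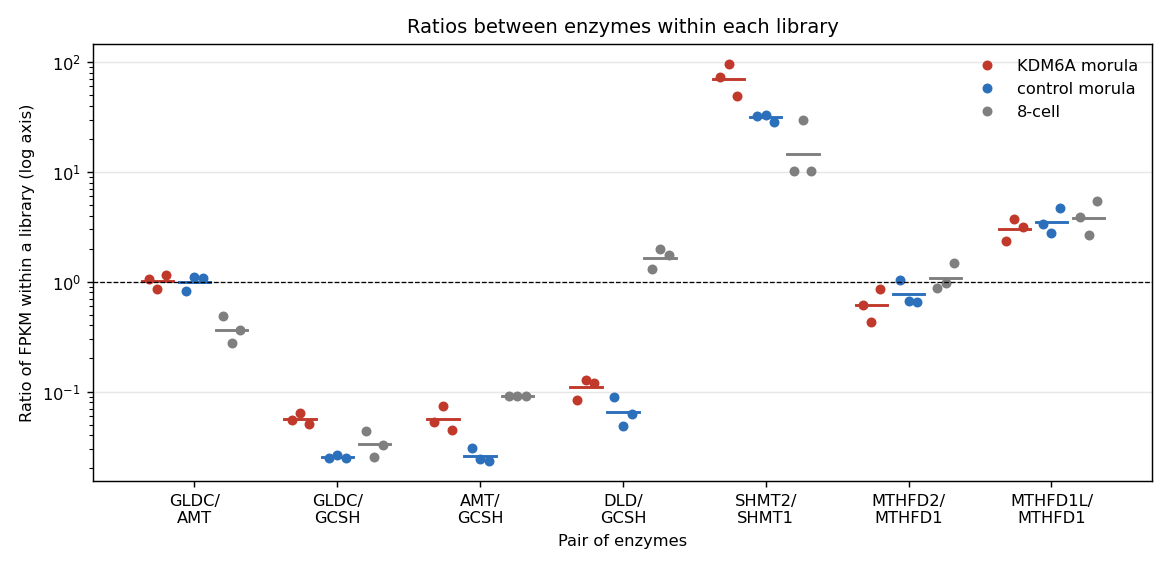
Ratio of FPKM between pairs of enzymes within each library on a log axis (points), with the geometric mean of each group (bars) and equality as a dashed line. GLDC/GCSH and AMT/GCSH are higher in KDM6A than in control morulae, a comparison in which the level of GCSH chose the set. DLD/GCSH is above 1 only in the 8-cell libraries.

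Between stages, GLDC and AMT rose and DLD fell, and GCSH had its higher level in morulae. GCSH was 9.53 times as high in control morulae as in 8-cell embryos (298.8 ± 72.7 FPKM), and 5.64 times as high in KDM6A morulae, given as a description. GLDC was at 72.6 ± 9.50 FPKM in control morulae against 16.60, 5.82 and 9.48 FPKM in the 8-cell libraries, a log2 difference of 2.76 (SE 0.319, limma adjusted p = 4.91e-05). AMT was at 72.8 ± 2.55 FPKM in control morulae against 33.96, 21.19 and 26.35 FPKM in 8-cell embryos, with a log2 difference of 1.42 (SE 0.212, limma adjusted p = 0.000229). DLD went the other way and fell to 220.87, 147.14 and 191.43 FPKM in control morulae, against 491.53, 465.56 and 502.16 FPKM in 8-cell embryos. Its log2 difference was -1.40 (SE 0.190, limma adjusted p = 0.000129). All control morula libraries lay on one side of all 8-cell libraries for each of these 4 genes. Of all genes in this fit, 45.4% lay higher and 29.1% lower without overlap. In bulk embryos, fewer cells of a type and less RNA per cell cannot be told apart.

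SHMT2 was the folate enzyme that rose. It stood at 47.29, 72.07 and 36.61 FPKM in control morulae against 15.17, 19.92 and 16.61 FPKM in 8-cell embryos, without overlap, a log2 difference of 1.49 (SE 0.263, limma adjusted p = 0.000636). MTHFD1L, the mitochondrial formate synthetase, averaged 32.35 ± 1.83 FPKM in control morulae and 29.5 ± 11.1 FPKM in 8-cell embryos. MTHFD1 averaged 9.32 ± 1.96 FPKM in control morulae and 7.39 ± 0.708 FPKM in 8-cell embryos, MTHFD2 7.38 ± 2.69 and 8.26 ± 2.82 FPKM, and SHMT1 1.63 ± 0.472 and 1.26 ± 0.518 FPKM in the same order. Log2 differences of these 4 genes lay between -0.15 and 0.28 with SEs of 0.240 to 0.320, and limma adjusted p-values of 0.313 to 0.686. Their signs are not fixed: that of SHMT1 and of MTHFD1 turned after quantile normalization, that of MTHFD1L with median-of-ratios scaling or without 8-cell replicate 2, and that of MTHFD2 without control replicate 3 or 8-cell replicate 3.

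Of the 8 genes tested, 3 were thus called higher and 1 lower in control morulae than in 8-cell embryos. Over all 10048 genes of the fit, 69.8% were called (42.7% higher and 27.1% lower), so 4 of 8 is no more than the share of genes in general. All genes together had a median log2 difference of 0.35. Quantile normalization brought this to 0.042 and scaling by median of ratios to 0.097. Quantile normalization put 51.1% of calls on the higher side in place of 61.2%. GLDC, AMT and SHMT2 stayed called higher and DLD called lower under these scalings.

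KDM6A morulae were compared with the same 8-cell libraries, so the 2 stage comparisons share them. GLDC rose by 3.14 (SE 0.323, limma adjusted p = 1.57e-05), AMT by 1.77 (SE 0.255, adjusted p = 0.000137) and SHMT2 by 1.44 (SE 0.258, adjusted p = 0.000592) on the log2 scale. DLD fell by 1.41 (SE 0.168, limma adjusted p = 3.80e-05). MTHFD1, at 12.50, 9.09 and 8.84 FPKM in KDM6A morulae against 6.58, 7.87 and 7.73 FPKM in 8-cell embryos, did not overlap between the groups and was not called (log2 difference 0.40, SE 0.254, limma adjusted p = 0.188). MTHFD2 and MTHFD1L had differences of -0.33 (SE 0.329) and 0.094 (SE 0.274) with limma adjusted p-values of 0.393 and 0.776, the sign of MTHFD1L turning under TPM scaling, quantile normalization or median-of-ratios scaling. SHMT1 was under 1 FPKM in 4 of these 6 libraries and was not tested. Of all 10024 genes in the fit, 66.7% were called (41.1% higher and 25.6% lower), and 71.3% did not overlap (43.2% higher and 28.2% lower). Higher calls made up 61.6% of calls, and 51.0% after quantile normalization.

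**Figure D3:**
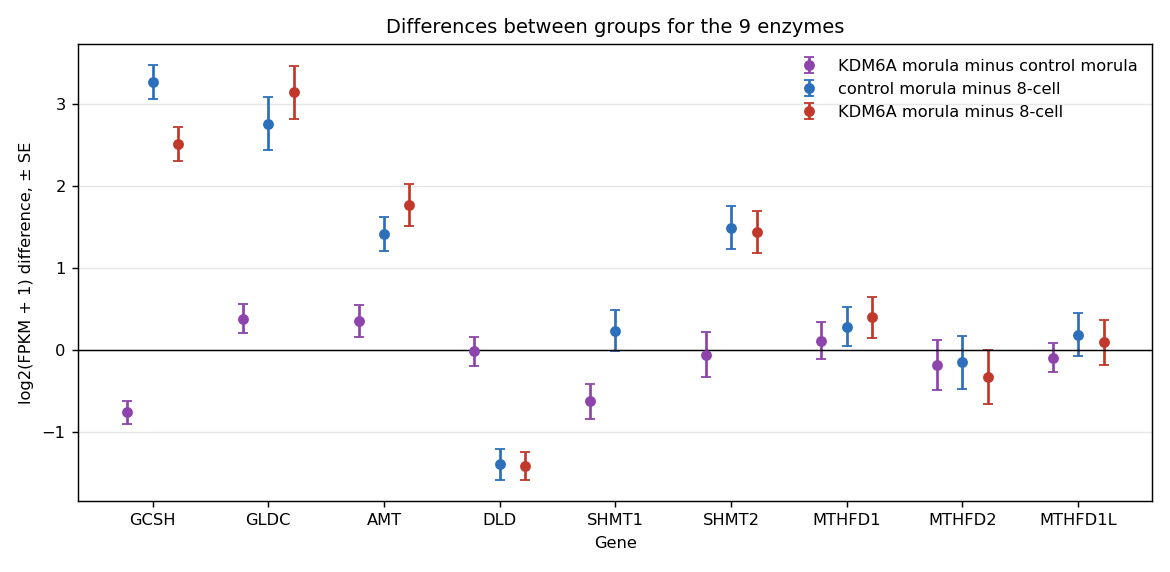
Difference in log2(FPKM + 1) with its SE for each enzyme in the 3 comparisons, KDM6A minus control morulae, control morulae minus 8-cell and KDM6A morulae minus 8-cell. GCSH, GLDC, AMT and SHMT2 lie above 0 and DLD below 0 in both stage comparisons. SHMT1 was not in the last fit.

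Without GCSH, the other 8 genes summed to 469 ± 47.0 FPKM in KDM6A morulae, 435 ± 21.7 FPKM in control morulae and 588 ± 34.6 FPKM in 8-cell embryos (SD, n = 3 each), DLD being the largest of them by mean in each group. The make-up of the set differed with stage. GLDC and AMT were near equal in morulae, with ratios of 1.05, 0.864 and 1.14 in KDM6A morulae and 0.822, 1.11 and 1.07 in control morulae, while GLDC lay under AMT in 8-cell embryos at 0.489, 0.275 and 0.360. Both morula groups lay above the 8-cell group without overlap, and the exact two-sided permutation test gave p = 0.1 for each, the smallest that 3 against 3 allows. Adjusted over the 10 ratio tests this was 0.25, so the design cannot pass 0.05. AMT relative to GCSH was almost constant among 8-cell libraries, at 0.0902, 0.0912 and 0.0915. DLD exceeded GCSH in 8-cell embryos, by 1.31, 2.00 and 1.74 times, whereas in KDM6A morulae DLD/GCSH was 0.0841, 0.128 and 0.119, and in control morulae 0.0890, 0.0487 and 0.0628.

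For the folate enzymes, the summed transcripts of the 3 mitochondrial forms exceeded those of the 2 cytosolic forms in every library, although MTHFD2 by itself lay under MTHFD1 in 7 of 9 libraries. SHMT2, MTHFD2 and MTHFD1L summed to 8.03 ± 1.31 times SHMT1 plus MTHFD1 in KDM6A morulae, 8.42 ± 0.436 times in control morulae and 6.31 ± 1.01 times in 8-cell embryos (SD, n = 3 each). SHMT2/SHMT1 had a geometric mean of 70.3 in KDM6A morulae, 31.4 in control morulae and 14.6 in 8-cell embryos. It did not overlap between KDM6A morulae and 8-cell embryos (exact permutation p = 0.1, adjusted 0.25) and overlapped between control morulae and 8-cell embryos (exact permutation p = 0.2, adjusted 0.4). MTHFD2/MTHFD1 was 0.614, 0.426 and 0.864 in KDM6A morulae and 0.880, 0.975 and 1.47 in 8-cell embryos, lower without overlap (exact permutation p = 0.1, adjusted 0.25), and overlapped between control morulae and 8-cell embryos (exact permutation p = 0.3, adjusted 0.5). The ratios of MTHFD1L to MTHFD1 and to MTHFD2 overlapped in both stage comparisons, with exact permutation p-values of 0.4 to 0.8.

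The genes whose profile over the 9 libraries was most like that of GCSH were ATP6V1H, a subunit of the vacuolar proton pump, PRPSAP1, which binds phosphoribosyl pyrophosphate synthetase, SGPP1, a sphingosine phosphate phosphatase, SMARCB1, a subunit of the SWI/SNF chromatin remodeller, and AVIL, an actin-binding villin relative. Likeness was the root mean square difference between profiles of log2(FPKM + 1) centred on their own mean, among 6029 candidates. It was 0.186 for ATP6V1H, 0.201 for PRPSAP1, 0.209 for SGPP1, 0.212 for SMARCB1 and 0.236 for AVIL, against a median of 1.28. ATP6V1H averaged 36.7 ± 8.36 FPKM in KDM6A morulae, 56.25 ± 12.1 in control morulae and 5.79 ± 1.22 in 8-cell embryos. AVIL averaged 8.07 ± 1.39, 10.1 ± 1.41 and 0.257 ± 0.386 FPKM in the same groups. Its 8-cell level lies under the 1 FPKM added before the log, which shrinks its stage difference. The profiles include the KDM6A and control values by which GCSH was chosen, so the likeness is a description. Of the other 8 enzymes GLDC came nearest to GCSH at 0.500 and DLD was farthest at 2.07.

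Around the set, 6 lists of neighbouring genes held 92 symbols, of which 83 were found. In KDM6A against control morulae, 0 of 66 list genes tested were called by limma, beside 0.164% called among all genes. At an unadjusted p under 0.05 there were 3 higher and 7 lower, beside 12.7% of all genes (6.31% higher and 6.41% lower). The list median of the log2 difference was -0.07 against -0.012 for all genes. Genes of lipoylation and of the dehydrogenase complexes that share DLD had the lowest median, -0.38 over 15 tested, with 0 called and, at the same unadjusted p, 5 lower. The list holds genes that make and attach lipoic acid, those that build the iron-sulfur clusters this needs, and subunits of the dehydrogenases, of which some carry the lipoic acid arm, as GCSH does, and others do not. The groups did not overlap for 5 of its 15 genes tested, all lower and given here because of that. Of all genes 15.7% did not overlap, with 8.61% lower. None of the 5 was called, and this comparison is the one that chose the set. GLRX5, an iron-sulfur cluster assembly protein, averaged 23.9 ± 12.8 FPKM in KDM6A morulae and 47.1 ± 2.56 FPKM in control morulae. NFU1 and BOLA3, which act in the same assembly, averaged 246 ± 27.9 and 159.5 ± 21.4 FPKM in KDM6A morulae and 336 ± 16.2 and 206 ± 14.4 FPKM in control morulae. PDHX and OGDH, dehydrogenase subunits, averaged 13.2 ± 5.32 and 21.2 ± 6.80 FPKM in KDM6A morulae and 20.4 ± 1.5 and 30.5 ± 1.77 FPKM in control morulae. These genes were picked out after their values were seen.

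Over the 6 lists together, 35 of 65 genes tested were higher and 13 lower in control morulae than in 8-cell embryos, or 73.8% called against 69.8% of all genes. KDM6A morulae had 29 of 66 higher and 14 lower, or 65.2% called against 66.7% of all genes. These shares are near those of genes in general. In each comparison 14 of the genes called had a mean under 1 FPKM in the lower group and so passed the filter through the group where they were high. Where such a gene is named, its levels are given with no p. The shares of all genes to set beside each list are 42.7% higher and 27.1% lower for control morulae, and 41.1% higher and 25.6% lower for KDM6A morulae.

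The calls of the lipoylation and dehydrogenase list between control morulae and 8-cell embryos were all on the higher side. Of 14 tested, 10 were higher and 0 lower by limma (10 and 0 at an unadjusted p under 0.05), beside 42.7% higher and 27.1% lower of all genes, with a median of 1.65 against 0.35 for all genes. Of the 10, 2 had an 8-cell mean under 1 FPKM. BCKDHA, of the branched-chain dehydrogenase, was at 21.5 ± 1.87 FPKM in control morulae and 0.857 ± 0.606 FPKM in 8-cell embryos. PDHB and PDHA1, of pyruvate dehydrogenase, were at 276 ± 38.9 and 66.8 ± 14.9 FPKM in control morulae and at 63.95 ± 11.6 and 13.7 ± 1.28 FPKM in 8-cell embryos, and BOLA3, a cluster assembly factor, at 206 ± 14.4 and 25.15 ± 10.8 FPKM (limma adjusted p at most 2.39e-05). DLD, the subunit these complexes share with glycine cleavage, was lower in the same libraries. In KDM6A morulae 7 of 15 were higher than in 8-cell embryos and 0 lower by limma (8 and 1 at an unadjusted p under 0.05), and 1 was called lower on the TPM scale, after quantile normalization, with median-of-ratios scaling, and without KDM6A replicate 1 or 8-cell replicate 2.

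Of the remaining folate cycle genes, 7 of 10 tested were higher in control morulae than in 8-cell embryos and 2 were lower, and 3 of the 7 had an 8-cell mean under 1 FPKM. MTHFSD was at 4.18, 4.07 and 3.17 FPKM in control morulae and 0, 0.38 and 0.04 FPKM in 8-cell embryos. MTHFS, which recycles formyl folate, was at 10.3 ± 2.50 FPKM in control morulae and 1.26 ± 0.585 FPKM in 8-cell embryos, QDPR, a pterin reductase, at 90.0 ± 12.5 and 25.4 ± 13.8 FPKM, and FPGS, which adds the glutamate tail that holds folate in cells, at 1.84 ± 0.765 and 0.243 ± 0.261 FPKM. For MTHFS and QDPR the limma adjusted p-values were 7.03e-05 and 0.00134. The 2 genes that fell were named after their values were seen, as was MTFMT, which rose. MTHFD2L, the isozyme of MTHFD2, was at 2.15 ± 1.15 FPKM in control morulae and 5.94 ± 1.61 FPKM in 8-cell embryos (limma adjusted p = 0.00891), and SLC25A32, the mitochondrial folate carrier, at 6.02 ± 2.25 and 15.9 ± 3.90 FPKM (limma adjusted p = 0.00291). MTFMT, the mitochondrial methionyl-tRNA formyltransferase, was at 33.2 ± 1.33 FPKM in control morulae and 16.25 ± 5.11 FPKM in 8-cell embryos (limma adjusted p = 0.00478). Of 10 tested in KDM6A morulae against 8-cell embryos, 6 were higher and 2 lower.

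Purine synthesis, which consumes folate-bound formyl groups, had 5 of 12 genes higher and 5 lower in control morulae than in 8-cell embryos, beside 42.7% and 27.1% of all genes. PFAS was at 15.6 ± 1.59 FPKM in control morulae and 0.413 ± 0.0551 FPKM in 8-cell embryos, ATIC, the later of the folate-using steps, at 207 ± 19.4 and 27.0 ± 9.08 FPKM, and ADSL at 94.0 ± 8.90 and 32.5 ± 11.9 FPKM. PPAT, the first committed enzyme, fell to 133 ± 18.7 FPKM in control morulae, against 292 ± 29.6 FPKM in 8-cell embryos. Limma adjusted p-values of ATIC, ADSL and PPAT were at most 0.000633, and PFAS passed the filter through control morulae alone. KDM6A morulae had 4 higher and 5 lower of 12.

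Of the methionine cycle and transsulfuration genes, 6 of 12 were higher and 2 lower in control morulae than in 8-cell embryos, and 5 and 3 in KDM6A morulae. In both comparisons 66.7% of the list was called, against 69.8% of all genes for control morulae and 66.7% for KDM6A morulae. For control morulae every alternative setting gave fewer higher calls, 3 to 5, and the lower count ran from 1 to 5. AHCY, which clears the by-product of methylation, was at 75.4 ± 10.8 FPKM in control morulae and 6.66 ± 1.49 FPKM in 8-cell embryos, and GNMT, a glycine methyltransferase, at 265 ± 134 and 64.9 ± 35.0 FPKM. AHCYL2 was also higher, and MAT2B, the regulatory subunit of methionine adenosyltransferase, fell to 54.9 ± 4.33 FPKM in control morulae, against 139.7 ± 7.69 FPKM in 8-cell embryos (limma adjusted p at most 0.00526 for these 4). In KDM6A morulae AHCY spread widely, at 121.27, 44.11 and 36.28 FPKM.

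Of the genes of serine synthesis and of serine or glycine transport, 2 of 9 were higher and 2 lower in either stage comparison, or 44.4% called against 69.8% and 66.7% of all genes, and 3 of these 4 had a mean under 1 FPKM in the lower group. For control morulae the lower count was 1 when any single 8-cell replicate was left out. For KDM6A morulae it was 0 without 8-cell replicate 2, and 1 without 8-cell replicate 1 or 3 or KDM6A replicate 2 or 3. PSPH, the last step of serine synthesis, was at 16.0 ± 2.82 FPKM in control morulae and 44.9 ± 10.7 FPKM in 8-cell embryos (limma adjusted p = 0.000439). The neutral amino acid transporter SLC1A4 was at 3.64 ± 1.33 FPKM in control morulae and 0.603 ± 0.0808 FPKM in 8-cell embryos, SFXN2 at 2.37 ± 0.282 and 0.71 ± 0.405 FPKM, and SLC6A5, a glycine transporter, at 0.197 ± 0.341 and 1.83 ± 0.613 FPKM. Of 8 genes of glycine use and breakdown 5 were higher and 2 lower in either comparison, and 5 of these 7 had a mean under 1 FPKM in the lower group. With a filter of 5 FPKM, 1 was higher in control morulae. GLYAT, which conjugates glycine, was at 0.04, 0.04 and 0 FPKM in control morulae and 4.92, 3.33 and 6.05 FPKM in 8-cell embryos. ALAS1, the first enzyme of haem synthesis, was at 18.7 ± 1.49 and 3.07 ± 1.09 FPKM, and GAMT, of creatine synthesis, at 6.33 ± 2.37 and 0.32 ± 0.217 FPKM, in control morulae and 8-cell embryos. For ALAS1 the limma adjusted p was 4.67e-05, and GLYAT and GAMT each passed the filter through the group where they were high. GCAT was listed at 0 in all 8-cell libraries and at 1.21, 1.51 and 1.59 FPKM in control morulae.

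**Figure D4:**
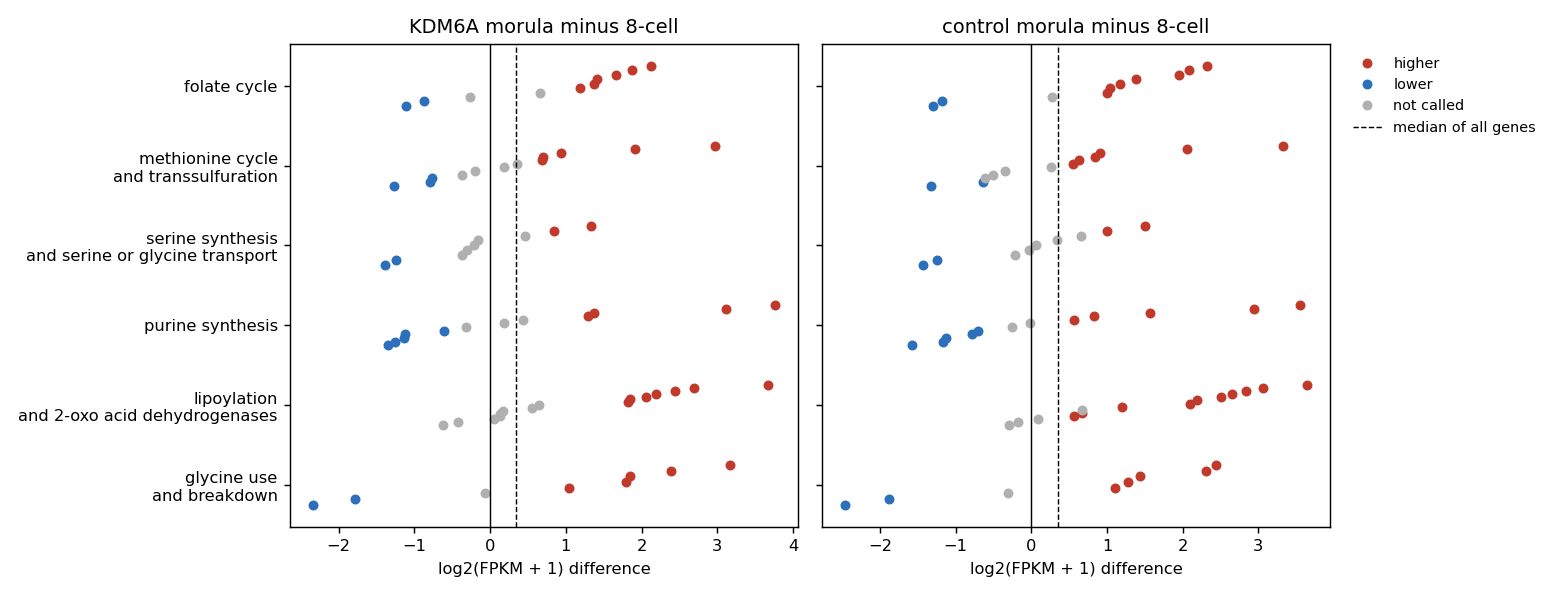
Difference in log2(FPKM + 1) of each tested gene of the 6 neighbouring lists, for KDM6A morulae (left) and control morulae (right) minus 8-cell embryos. Points are called higher, called lower or not called at a limma adjusted p of 0.05, and the dashed line is the median of all genes. No lipoylation or dehydrogenase gene is called lower in either panel at these settings, while purine genes are called on both sides.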

How the data were processed

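The authors deposited FPKM per gene for each library, per the file headers. The submitters' processing notes name RSEM 1.2.12, Bowtie2 2.2.5, HISAT 0.1.6, StringTie 1.0.4, bcl2fastq 2.16 and the build UMD3.1, without roles. Filters and shared reads are not described there. Whole reads could not be recovered from low values (the commonest log2 ratio bin held 3.92% to 9.01% of low genes over 36 library pairs), so depth is unknown and precision rests on the spread of 3 libraries. Rows without an annotated identifier (3038, in control replicate 1) were left out. Files were joined by gene identifier.

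Values were tested as log2(FPKM + 1) by limma 3.58.1 (R 4.3.3, trended prior), with a fit per comparison on its 6 libraries, genes with at least 1 FPKM in 3 of them, and Benjamini-Hochberg adjustment over all genes at 0.05. A log2 difference understates change in low genes. The fit was tested on simulated data with 200 changed genes per comparison. For KDM6A against control morulae it called 46% of log2 changes of 1 and 87% of changes of 2. These shares were 42% and 85% for control morulae against 8-cell embryos, and 25% and 76% for KDM6A morulae against 8-cell embryos. False calls numbered 2, 5 and 8 in the same order, so many changes of 1 would go uncalled. Ratios used exact permutation (scipy 1.17.1). Other work used Python 3.11.15, pandas 2.3.3, numpy 2.4.6 and matplotlib 3.10.9. The members and lists were chosen with earlier results of these data known. All 9 enzymes are named, and from each list up to 4 genes with the smallest adjusted p between control morulae and 8-cell embryos. Same-numbered replicates do not pair. Sequences and coordinates were not used here. Alternatives were a pseudocount of 0.1, no filter, a filter of 5 FPKM, median-of-ratios scaling, TPM scaling, quantile normalization, a fit of all 9 libraries, each replicate left out and a replicate block.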

Additional observations from a re-analysis of the deposited data

How the results depend on the processing

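The main fit tested 8 enzymes in control morulae against 8-cell embryos, and the same enzymes without SHMT1 in KDM6A morulae. The 3 called higher and 1 called lower were 3 and 1 in both stage comparisons under each alternative run. They were also 3 and 1 with the replicate block. Over the replicates left out these counts stayed at 3 and 1. Over all alternatives in control morulae against 8-cell embryos, GLDC ran from 2.43 to 3.11, AMT from 1.14 to 1.58, SHMT2 from 1.22 to 1.71 and DLD from -1.68 to -1.24 in log2 difference, with limma adjusted p up to 0.00774. Differences that were not called turned sign. Against 8-cell embryos in control morulae, SHMT1 read -0.051 and MTHFD1 -0.036 after quantile normalization, MTHFD1L -0.082 with median-of-ratios scaling, MTHFD2 0.10 without control morula replicate 3 and 0.076 without 8-cell replicate 3, and MTHFD1L -0.017 without 8-cell replicate 2. In KDM6A morulae MTHFD1L read -0.020 on the TPM scale, -0.076 after quantile normalization, -0.16 with median-of-ratios scaling and -0.11 without 8-cell replicate 2. In control morulae against 8-cell embryos, the difference in log2 ratio MTHFD1L/MTHFD1 was -0.119 in the main run. It read 0.058 without control morula replicate 2 and 0.13 without 8-cell replicate 3. With replicates left out, the whole ranges in control morulae were -0.38 to 0.10 for MTHFD2, -0.017 to 0.47 for MTHFD1L and -0.38 to 0.13 for the ratio. For MTHFD1L in KDM6A morulae the range was -0.11 to 0.37. The cause was not tested.

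The GCSH difference between KDM6A and control morulae ran from -0.88 to -0.65. Calls over all genes there numbered 16, and 725 without KDM6A morula replicate 1, 17, 8 and 3 without control replicates 1, 2 and 3, 3 and 1 without KDM6A replicates 2 and 3, 25 on the TPM scale, 28 after quantile normalization, 11 with a filter of 5 FPKM, 10 in a fit of all 9 libraries and 0 with no filter. With the replicate block there was 1, and correlations of same-numbered libraries' deviations ran from -0.216 to 0.133. Over the alternatives, list counts in control morulae against 8-cell embryos ranged from 8 to 10 higher and 0 to 1 lower for lipoylation. They were 4 to 8 and 1 to 2 for the folate cycle, and 3 to 5 and 5 to 6 for purine synthesis. For the methionine cycle they were 3 to 5 and 1 to 5, with the main count of 6 higher above every alternative. They were 0 to 3 and 1 to 2 for serine genes, and 1 to 7 and 1 to 2 for glycine use. In KDM6A morulae, in the same order, these were 7 to 8 and 0 to 1, 3 to 7 and 1 to 3, 3 to 5 and 4 to 6, 2 to 5 and 1 to 4, 0 to 2 and 0 to 3, and 2 to 5 and 1 to 2.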
